A study of Mus musculus with 16 samples.

Results

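The measurements described here come from 8 microarrays hybridised with total RNA of E14tg2a, a mouse embryonic stem (ES) cell line. The 8 arrays were chosen by their titles, as those that received 5 µg of undiluted RNA without amplification, and they are 8 of the 16 arrays of the series. The study was made to test a method of amplifying cDNA from single-cell amounts of RNA, and the other arrays, which carried amplified material, were not used here. Each array gave 1 intensity for each of 45037 probe sets, not counting 64 control probe sets. A probe set is a group of short oligonucleotide probes aimed at 1 transcript, and its intensity is the brightness left by labelled cRNA bound to them, in arbitrary units with a floor at 1. Every array carried the same untreated RNA, and the labels call the 8 arrays technical replicates. The spread given below is therefore that of labelling, hybridisation and scanning, and not that of cultures. The labels give the line and the extraction and labelling kits, but not the passage, the medium or whether feeder cells were present.

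ES cells are the cultured counterpart of the inner cell mass, the cells of the early embryo that form all tissues of the body. Their state is held by a network of transcription factors around Oct4 (encoded by Pou5f1), Sox2 and Nanog, and in mouse cultures it is supported by the cytokine LIF and by BMP signals. ES cells divide fast, with a short gap before DNA replication, and draw much of their energy from glycolysis. Genes of later lineages are held silent or near silent, many of them by Polycomb complexes.

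Probe sets were ranked by their mean intensity over the 8 arrays and placed in 3 bands. The background band ends at an intensity of 73.7, the 95th percentile of 85 probe sets of odorant, vomeronasal and taste receptor genes, a class of genes used in sensory neurons. These receptor probe sets ran from 3.36 to 185, with a median of 20.3. The high band holds the brightest 10% of probe sets and starts at 428, and the middle band lies between. By these levels 4504 probe sets (10%) were high, 13309 (29.6%) middle and 27224 (60.4%) background. A gene was represented by its brightest probe set. Of 18193 genes with a probe set of a single symbol, 2671 (14.7%) were high, 7170 (39.4%) middle and 8352 (45.9%) background, so that 9841 (54.1%) lay above background. The levels cut a continuous range: Ercc6l, the dimmest gene of the high band, had a mean of 428.0 and Idh1, the brightest of the middle band, 427.9, while AU041133 just above the background level had 73.72 and Pomk just below it 73.67. Probes bind with different strength, so the order of 2 genes by intensity is an order of signal and not of transcript number. A value in the background band is a bound on the signal of that probe set and does not show that the transcript was absent.

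The arrays were alike in depth of signal. The median intensity was 51.7 ± 1.44 (SD, n = 8 arrays), between 49.7 and 53.8, and 2.55 ± 0.375% of probe sets lay at the floor (range 2.09 to 3.22%). Over probe sets above background, log2 intensities of any 2 arrays correlated with Pearson's r between 0.986 and 0.995, a description across 17813 probe sets and not across independent samples. The ratio of 3' to 5' signal, a measure of how complete the cRNA was, stayed between 1.19 and 1.24 for actin and between 0.824 and 0.85 for Gapdh. Arrays 1 and 2 stood apart from arrays 3 to 8 on part of the probe sets. Their deviations from the 8-array mean correlated at r = 0.3255, against 0.316 for arrays 4 and 5. The counts that follow were made for no other pair. Arrays 1 and 2 both lay above all 6 others for 2022 probe sets above background (11.4%) and below all 6 for 1900 (10.7%). The difference was at least 0.5 on the log2 scale only for 39 and 99 of them. On these arrays the spiked hybridisation controls were brightest (1.36 and 1.38 of their 8-array mean, against 0.712 to 1.15 on the others), and a control probe set for the 5' part of 18S rRNA read 188 and 191 against 360.3 to 544. The part of these technical values in the results was not tested. Values for both sets of arrays are given below for some genes only. Other genes given by 1 mean also had arrays 1 and 2 both outside the range of arrays 3 to 8. Among these were Ldha, Sall4 and Klf4, with both arrays above, and Pou5f1, Tfap2c and Foxn2, with both below.

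The label was set beside the cells' own genes first. The lists were chosen with earlier results of these data known, so they are no independent check of the label. The core pluripotency factors were all in the high band, and no member of the lists of naive pluripotency factors (14 measured) and ES cell-enriched transcripts (19 measured) was in the background band, against 45.9% of all genes. Further genes described here for the line were likewise chosen after their values were seen. E14tg2a is known as deficient in Hprt, the purine salvage enzyme, and the Hprt probe set read 19.6 at the lowest, 25.4 at the median and 36.4 at the highest, in the background band on all 8 arrays. Aprt, the salvage enzyme for adenine, read 1362 ± 68.1 (n = 8). E14tg2a is known as a male line. Eif2s3y, a Y-linked translation factor, lay in the high band at 660.0 ± 50, and Uty, a Y-linked histone demethylase, in the middle band at 185 ± 17.5. Kdm5d (44.5 ± 8.34) and Sry, the testis-determining gene (72.3 ± 21.6), were in the background band. Xist, the RNA that coats the inactive X chromosome, had 1 probe set at 165 and the others at 27.1 and 25.7, and its antisense partner Tsix read 53.4 ± 12.6.

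Markers of other cells differed by list. In the background band, which held 45.9% of all genes, lay 12 of 13 endoderm organ markers (median intensity 28.8), 11 of 14 mesoderm and muscle markers (46.6), 10 of 13 blood cell markers (49.6), 7 of 11 trophoblast markers (51.9), 10 of 16 primitive endoderm markers (63.7), 6 of 12 neural markers (89.1), 9 of 15 fibroblast markers (54.6) and 4 of 11 skin markers (83.6), where the median of all genes was 84.1. By the brightest probe set, the neural list was near all genes in both values, and the skin list had a smaller background share (36.4%). By the mean over a gene's probe sets, 9 of 12 neural and 5 of 11 skin markers were at background. So were 13 of 16 primitive endoderm and 12 of 15 fibroblast markers. Of all genes, 8566 of 18193 lay above background by that mean. Cdx2, which sets the trophoblast fate, read 7.24 at the lowest, 17.7 at the median and 23.1 at the highest. Afp, the fetal serum protein of endoderm, reached 23.2 and was at the floor on at least 1 array, and Myog, the muscle regulator, had a median of 3.66. Ptprc, the pan-leukocyte surface protein CD45, read 22.1 ± 8.30. The endoderm regulators Gata6 (73.2 ± 15.4), Sox17 (36.2 ± 7.76) and Gata4 (27.0 ± 6.55) and the neural regulator Sox1 (34.5 ± 11) lay below the background level by their means, Gata6 with some arrays on either side of it. Other members of these lists were in the middle band, among them the neuronal genes Neurod1 (224 ± 18.5), Tubb3, a tubulin (207, between 185 and 222), Dcx (125 ± 24.7) and Map2 (107 ± 9.57), the neural stem cell filament Nes (110.3 ± 11.1), and the primitive endoderm list's laminin Lama1 (239.5 ± 17.2), receptor Pdgfra (91.8 ± 12.4) and transcription factor Hnf4a (89.2 ± 8.98).

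Members in the high band were fewer, and some rested on 1 of several probe sets. Fibroblast markers in the high band were Vim, an intermediate filament protein (1729.9 ± 99.7), and Fn1, an extracellular matrix protein (1441 ± 49.3), while the fibroblast collagens Col1a1 (53.0 ± 16.2) and Col3a1 (21.6 ± 8.48), the surface protein Thy1 (23.2 ± 7.05) and the matrix protein Lum (14.5 ± 5.86) were in the background band. In the middle band were the fibroblast markers S100a6, a calcium-binding protein (324, between 282 and 355), Lox, a collagen cross-linking enzyme (137 ± 16.9), Timp2, a protease inhibitor (84.9 ± 15.3), and the collagen Col1a2 (82 ± 8.57). Lamb1 (604 ± 37.8) and Sparc (535 ± 22), basement membrane genes used as primitive endoderm markers, were high, and a second Sparc probe set read 515. Tfap2c, a transcription factor of trophoblast and germ cells, was high at 569.7 ± 55.7, with its other probe sets in the middle band at 176 and 131. Lor, a skin barrier protein, was high by 1 probe set (612 ± 54.1), and its other probe sets read 43.7 and 20. Cd4, a T cell surface protein, likewise read 383 ± 37.0 by 1 probe set and 31.3 by the other. Pax6, a regulator of eye and brain, had 1 probe set at 247, 1 at 114 and 3 others in the background band. A higher background level of 151, taken from 103 genes of secreted and structural proteins of single organs, left 1 trophoblast, 3 primitive endoderm, 3 neural, 1 mesoderm, 1 endoderm organ, 3 fibroblast, 1 blood and 1 skin marker above it. It left all 3 core factors, 13 of 14 naive factors and all 19 ES cell-enriched transcripts above.

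**Figure D1:**
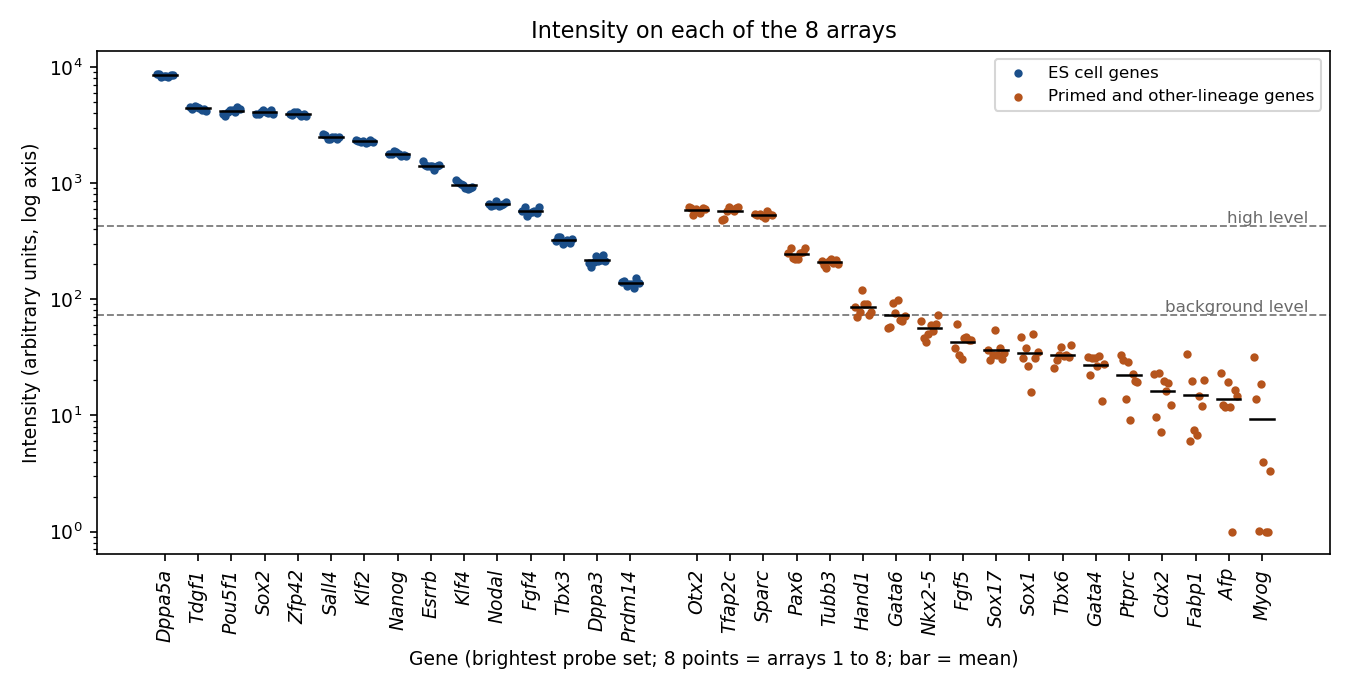
Intensity on a log axis of 15 ES cell genes (blue) and 18 genes of primed cells or other lineages (orange), by their brightest probe set. Each gene has 8 points, 1 for each array, and a bar at the mean, and dashed lines mark the high level (428) and the background level (73.7). All points of the ES cell genes lie above the background level, and Prdm14 is lowest among them at 137 ± 8.08, while Otx2, Tfap2c and Sparc are the genes of the second set whose means are in the high band.

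Of the core factors, Pou5f1 read 3799 at the lowest, 4185 at the median and 4481 at the highest of the 8 arrays, and Sox2 read 3891, 4067 and 4237. The ranges of these 2 genes overlapped (means 4159 ± 213 and 4050.2 ± 138). Array by array, Pou5f1 was above Sox2 on all but array 2, where they read 3799 and 3891. Nanog, the last factor of the core, read 1695, 1776 and 1877, below both on every array. Pou5f1 ranked 98th, Sox2 100th and Nanog 435th among the 18193 genes.

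The naive pluripotency factors, which mark the ground state of the preimplantation epiblast, ran from Zfp42 to Prdm14. Of them 10 of 14 were high (71.4%, against 14.7% of all genes), with a median intensity of 864. Zfp42, a zinc finger protein also called Rex1, was brightest at 3912 ± 132. Sall4, a zinc finger repressor, followed at 2490.1 ± 94.3 and the Krüppel-like factor Klf2 at 2279 ± 50.9, and the ranges of these 3 did not overlap. The other Krüppel-like factors of this set were dimmer, Klf5 at 1159 ± 67.0 and Klf4 at 953 ± 58.2. The nuclear receptors Nr0b1 (1636 ± 68.9), Esrrb (1411 ± 70.2) and Nr5a2 (544 ± 35.2) were all high, with no overlap between their ranges. Tfcp2l1, a transcription factor downstream of LIF, read 615 ± 25.2, and Zfp281, linked to the exit from this state, 774 ± 31.7. In the middle band were Stat3, the effector of LIF (395 ± 14.9), Tbx3 (320.3 ± 17.3), Gbx2 (243 ± 18.7) and Prdm14, a repressor of Fgf receptor signalling (137 ± 8.08). Prdm14 had a narrow spread for a gene this dim, 125 to 152 over the 8 arrays.

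ES cell-enriched transcripts held 1 of the 10 brightest genes. Dppa5a, an RNA-binding protein of early embryos and germ cells, read 8142 at the lowest, 8384 at the median and 8736 at the highest and ranked 8th of all genes. Tdgf1, the Nodal co-receptor also called Cripto, read 4391 ± 153 and L1td1, an RNA-binding protein derived from a LINE-1 element, 3017 ± 127. Of this list 17 of 19 were high (89.5%, against 14.7% of all genes), with a median of 1842.

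Several of these genes had no order beyond their spread. Dppa4 (1842 ± 37.6), Dppa2 (1822 ± 62.2), both small chromatin proteins encoded side by side, and Utf1, a chromatin factor (1814 ± 147, or 1744 without arrays 1 and 2, which were both above the others), had overlapping ranges, as had Dnmt3l and Dnmt3b, a cofactor and an enzyme of de novo DNA methylation, at 2008 each. Lin28a (1978 ± 51.9) and Trim71 (1288 ± 63.8), both RNA-binding regulators in the let-7 microRNA pathway, were high. Mycn, a Myc family transcription factor (2437 ± 106), Rif1, a replication timing and telomere protein (2171 ± 47.4), and Fbxo15, an F-box protein known as an Oct4 target (1936 ± 47.6), were high as well. The Nodal pathway was represented by the ligand Nodal (658 ± 22.5), the related ligand Gdf3 (898 ± 43.4) and the inhibitors Lefty1 (799 ± 29.8) and Lefty2 (418 ± 29.6), the last with arrays on both sides of the high level. Fgf4, the growth factor by which ES cells prime themselves for differentiation, read 573 ± 32.3. Dppa3, a maternal factor also called Stella, was the dimmest of the list at 215 ± 15.9, between 188 and 238.

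Genes that rise when ES cells move towards the postimplantation, primed state were mixed, with 2 of 13 high (15.4%, against 14.7% of all genes), 7 middle and 4 background (30.8%, against 45.9%) and a median of 118. Otx2, a head and primed-state regulator (588 ± 31.5), and Sox4 (519 ± 14.9) were high. Pou3f1, a POU factor of the primed state (376 ± 16.4), and Foxd3, a repressor active in both states (239 ± 24.2), were in the middle band. Fgf5, the classical primed-state marker (43.2 ± 9.64), and the mesendoderm genes Mixl1 (42.7 ± 4.47) and Gsc (8.55 ± 6.01) were in the background band. Eomes, another mesendoderm gene, averaged 76.0 ± 21.4 and had arrays on both sides of the background level.

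All 24 genes of the signal pathways that act on ES cells had means above the background level, 9 of them high and 15 middle, against 54.1% of all genes. Ctnnb1, beta-catenin, was brightest at 4292 ± 111. Among receptors, Lifr read 902 ± 61.0 and its partner Il6st, gp130, 366 ± 30, and the receptor kinases Fgfr2 (246 ± 29.2), Bmpr1a (201 ± 11.2) and Fgfr1 (108 ± 8.05) were in the middle band. Targets and feedback inhibitors lay in both bands. High were Spry2, an inhibitor of Fgf signalling, at 1456 ± 64.3, Socs3, an inhibitor of LIF signalling, at 928 ± 42.0, Dusp6, an ERK phosphatase, at 451 ± 14.4, and the BMP targets Id1 and Id2 at 683 ± 26.0 and 677 ± 53.0. Id3 (313 ± 26.1) and Spry4, a relative of Spry2 (392 ± 33.2), were middle. Tcf7l1, the Wnt pathway repressor, read 599 ± 18.8, while Axin2, a target of Wnt signalling, was the dimmest of the list at 74.1 ± 6.97, with arrays on both sides of the background level. Surface and adhesion genes were led by Cdh1, E-cadherin (1725 ± 117), the tetraspanin Cd81 (1502 ± 60.1) and Epcam (1222 ± 29.9). Of this list 6 of 14 were high (42.9%, against 14.7% of all genes). Alpl, the alkaline phosphatase used to stain ES cell colonies, read 171 ± 17.9, and Cldn7, an epithelial tight junction protein, 62.7 ± 8.03.

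The top of the ranking was taken by the machinery of protein synthesis. Eef1a1, which brings aminoacyl-tRNA to the ribosome, was brightest with 9965 at the lowest, 10176 at the median and 10392 at the highest array. Rps29, Rpl13a, Rpl4 and Rps2, proteins of the small and large ribosomal subunits, came next at 9795 ± 252, 9659 ± 164, 9546 ± 316 and 9044 ± 247. Of the brightest 100 genes, 36 were cytosolic ribosomal proteins and 7 were translation factors. The first 20 also held Tpt1, a growth-related tubulin-binding protein (8742 ± 132), the constitutive chaperone Hspa8 (8283 ± 149.6), the nucleolar chaperone Npm1 (8047 ± 203) and the actin-binding peptide Tmsb10 (7999.9 ± 166). Mtm1, a lipid phosphatase, ranked 11th by a probe set at 8305 ± 422, with others at 6849 and 20.5. Of the brightest 20 probe sets, 9 had no single gene symbol and could not be assigned to a gene.

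Of 44 cytosolic ribosomal protein genes measured, 40 were high (90.9%, against 14.7% of all genes), 3 middle and 1 background. Their median was 6988 against 84.1 for all genes. The list was not uniform. From Rps29 down to Rpl39 (4361 ± 318) lay 36 members, and then the values dropped to Rpl37 at 967 ± 95.5, with Rps6, a substrate of growth signalling, at 290.2 ± 14.4, Rps27 at 83.9 ± 12.5 and Rps16 at 11.1 ± 7.42. Rps27 and Rps16 each had 1 probe set with a single symbol. Mitochondrial ribosomal proteins were dimmer, 52 of 76 high and none at background, with a median of 572, from Mrpl15 (2493 ± 189) to Mrpl14 (200.5 ± 16.5). Translation factors had 41 of 56 high. Eif4a1, the helicase that unwinds mRNA near the cap (7095 ± 169), and Eif5a (6181 ± 171) followed Eef1a1, whereas Eef1a2, the form of the elongation factor used in muscle and neurons, read 109 ± 17.7. Eif4a3 was lowest at 5.88 ± 7.40, by its only probe set with a single symbol, which was at the floor on some arrays. Of the aminoacyl-tRNA synthetases, which charge tRNAs, 16 of 19 were high, from Kars at 1504 ± 49.1 to Wars at 324 ± 19.3.

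Protein folding and turnover genes were close behind, where 14.7% of all genes were high. All 8 subunits of the TRiC chaperonin, a ring that folds actin and tubulin, were high, from Cct2 (4717 ± 109) to Cct8 (2840.1 ± 125). Of heat shock and ER chaperones 15 of 19 were high. Hspa8 and Hsp90aa1 (7666 ± 210.1) led them, and the stress-inducible Hspa1b and Hspa1a read 152 ± 6.80 and 27.4 ± 6.49. The proteasome had 32 of 39 members high. Its standard subunits were led by Psma3 (2721 ± 53.3), Psmb4 (2712 ± 154) and Psmb7 (2668 ± 51.5), and the subunits of the immune and thymic proteasomes were dimmer, Psmb8 at 277 ± 27.7, Psmb9 at 67.8 ± 4.02 and Psmb11 at 28.2 ± 11.4.

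Energy genes were mostly high, against 14.7% of all genes. Of glycolysis enzymes 10 of 15 were high, led by Ldha, lactate dehydrogenase A (6237 ± 238), Pkm (5313 ± 248) and Pgk1 (4863 ± 279). Ldhb, the heart-type subunit, read 634 ± 22.8, Hk2 1587 ± 81.3 against 167 ± 7.51 for Hk1, both hexokinases, and the muscle and neuronal enolases Eno3 and Eno2 read 114 ± 7.63 and 31.6 ± 5.05. Of respiratory chain and ATP synthase subunits 72 of 81 were high, with a median of 1180 and Atp5b (5316 ± 131), Uqcrb (4464 to 4911 over the arrays) and Cox4i1 (4332 ± 107) on top. Among tissue-restricted cytochrome oxidase subunits, Cox6b2 and Cox8c, forms known from testis, read 571 ± 22.8 (high) and 183 ± 17.8 (middle). Others were at or near background: Cox4i2 at 82.2 ± 5.92, Cox7a1 at 77.0 ± 6.79, Cox6a2 at 61.3 ± 11.5 and Cox8b at 42.4 ± 5.35, where Cox6a1 and Cox7a2 read 3488 ± 91.5 and 3065 ± 82.1. Ndufb4, a common complex I subunit, was nonetheless lowest at 14.6 ± 2.52 by its only probe set with a single symbol.

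Genes of DNA replication were largely high, and cell cycle regulators less so, where 14.7% of all genes were high and 45.9% at background. Of the MCM helicase and the factors that load it at origins, 13 of 15 were high, led by Mcm7 (3388 ± 124) and Mcm5 (2580.4 ± 90.3), and both the loader Cdt1 (2300.5 ± 64.3) and its inhibitor geminin, Gmnn (1266 ± 44.0), were among them. Nucleotide synthesis had 11 of 13 high, from Paics of the purine pathway (3437 ± 90.7) and Rrm2, a subunit of ribonucleotide reductase (2176 ± 88.3), down to Tyms, thymidylate synthase, at 51.2 ± 7.21. Of cyclins, Cdks and their inhibitors 8 of 21 were high (38.1%), 10 middle and 3 background (14.3%), with a median of 195. Their high share was thus also above that of all genes. Of these, Cdk4 (2223 ± 151), Cdk1 (2043 ± 71.3), the S and M phase cyclins Ccna2 (1345 ± 56.4) and Ccnb2 (1188 ± 67.5) and Ccne1, the cyclin of S phase entry (868 ± 36.5), were high. Of the D cyclins, which answer to growth factors, Ccnd1 and Ccnd3 read 877 ± 41.0 and 642 ± 37.9 and Ccnd2 224 ± 8.04. The inhibitors of these kinases were lower, Cdkn1b at 160.3 ± 11.4, Cdkn1a at 129 ± 6.54, Cdkn2b at 32.7 ± 8.24 and Cdkn2a at 30 ± 9.91.

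RNA processing genes were largely high, against 14.7% of all genes. Of hnRNP and SR proteins, which bind pre-mRNA and steer splicing, 27 of 29 were high, with Hnrnpab (4194 ± 158) and Hnrnpc (4019 ± 226) on top and Srsf12 at 11.8 ± 5.67. Core spliceosome proteins had 31 of 40 high and none at background, from Snrpg (4441 ± 143) to Lsm11 of the histone mRNA particle (114 ± 7.66). Nuclear pore proteins had 17 of 18 high, led by Nup62 (1845 ± 88.0), and the exception Nup210 read 237 ± 15.3. RNA helicases were divided, 21 of 51 high (41.2%), 25 middle and 5 background (9.8%, against 45.9% of all genes). Ddx5 (3749 ± 181), Ddx39a (3359 ± 119) and Ddx3x (3162 ± 102) led them, and the antiviral helicases Dhx58 (22.2 ± 7.24) and Ddx60 (13.9 ± 9.19) were in the background band.

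Chromatin complexes were high in some subunits and dimmer in several paralogues, where 14.7% of all genes were high and 45.9% at background. Of DNA methylation and Tet enzymes 6 of 9 were high: beside Dnmt3l and Dnmt3b these were Tet1, which oxidises methylcytosine (1934 ± 98.9), Uhrf1 (1269 ± 73.3) and Dnmt1 (988 ± 16.1) of maintenance methylation, and Dnmt3a (472 ± 22.7). Tet2 read 329 ± 11.9 and Tet3 101 ± 14, so that the ranges of the 3 Tet genes did not overlap. Of Polycomb subunits 8 of 17 were high and 2 background, and 4 and 5 when a gene's probe sets were averaged. Among the high ones were Eed (2389 ± 140.2), Jarid2 (2088 ± 86.9), Ezh2 (1109 ± 37.5) and Suz12 (851 ± 23.2) of the complex that methylates histone H3, and Phc1 (1758 ± 91.1) and Cbx7 (522 ± 43.9) of the complex that modifies H2A. Their paralogues Ezh1 (134 ± 8.26), Cbx2 (234 ± 7.43) and Phc3 (40 ± 8.42) were dimmer.

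Of subunits of the BAF complex, which slides nucleosomes, 6 of 19 were at background (31.6%, against 45.9% of all genes). High were 10 (52.6%, against 14.7% of all genes), and 4 when a gene's probe sets were averaged. Among these were Actl6a (1526 ± 115), Arid1a (1462 ± 81.2), Smarcc1 (1191 ± 35.3), Smarcd1 (789 ± 42.8), the ATPase Smarca4 (773 ± 36.7) and Dpf2 (593 ± 46.7). In the background band were the alternative subunits used in other tissues, the ATPase Smarca2 (49.0 ± 5.69), Smarcc2 (55.4 ± 5.79), Smarcd3 (58.4 ± 8.52) and the neuronal Actl6b (42.3 ± 6.01), Dpf1 (65.1 ± 7.11) and Dpf3 (67.3 ± 17.5). The list of histone variants and nucleosome proteins, which also holds the nucleolar proteins Npm1 and Ncl, had 9 of 14 high. At background were 4 (28.6%, against 45.9% of all genes). On top were Npm1, Hmgn1 (6097 ± 282) and Ncl, nucleolin (5584 ± 174), and the histone variant H2az1 read 3209.9 ± 133. The genes of the replacement histone H3.3, H3f3a (57.0 ± 6.43) and H3f3b (39.9 ± 7.57), were in the background band by the only probe set of each with a single symbol.

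**Figure D2:**
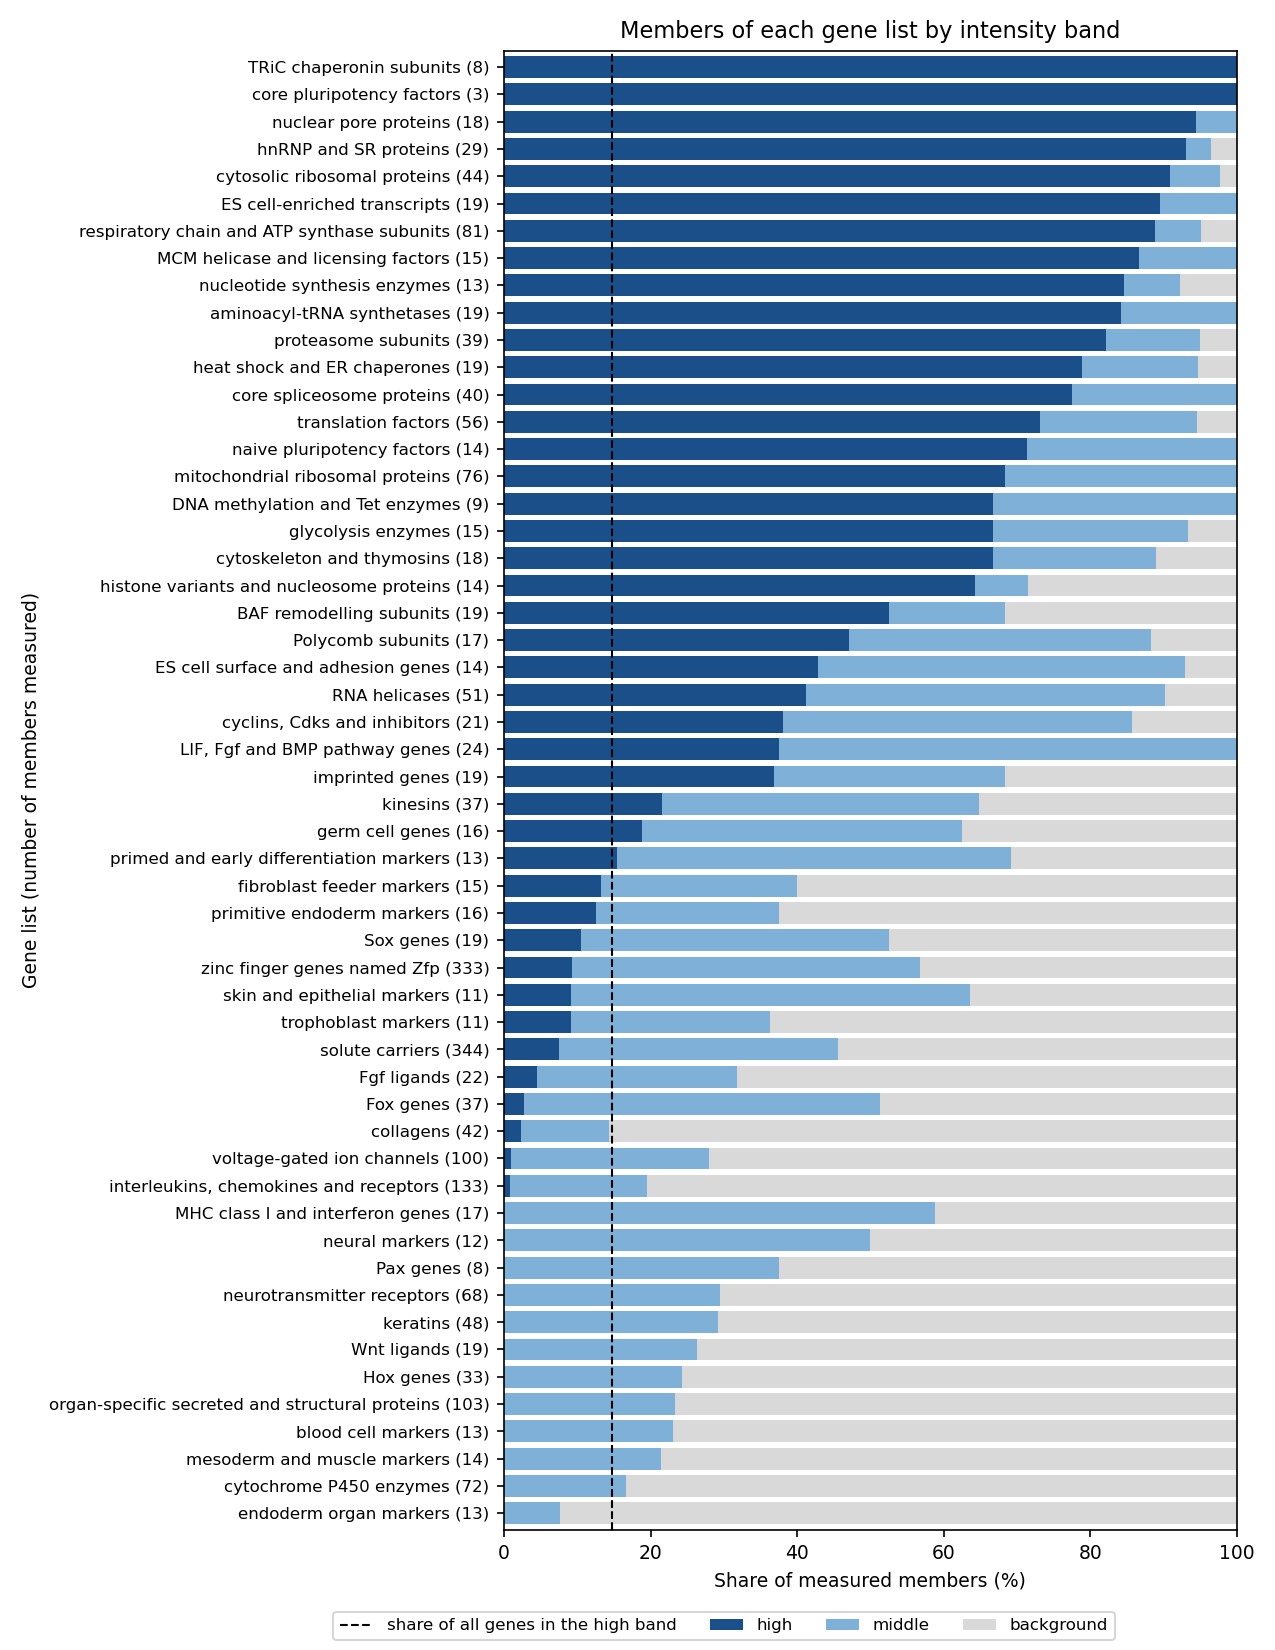
Share of the measured members of 54 gene lists in the high (dark), middle (light) and background (grey) band, in percent, with the number of members measured in brackets. The dashed line marks the 14.7% of all genes in the high band. Lists of protein synthesis, RNA processing, replication and pluripotency fill the top, and organ markers, cytochrome P450 enzymes, muscle and blood markers and Hox genes the bottom.

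Large families are given beside the shares of all genes, 14.7% high and 45.9% background. Zinc finger genes named Zfp had 31 of 333 high (9.31%) and 144 at background (43.2%), with a median of 86.5. Zfp42 was the brightest of them, followed by Zfp982 (2687 ± 139) and Zfp207, a mitotic spindle protein (1949.9 ± 131). Solute carriers, the main class of membrane transporters, had 26 of 344 high (7.56%), 131 middle and 187 at background (54.4%). The adenine nucleotide and phosphate carriers of mitochondria, Slc25a5 (4451 ± 236) and Slc25a3 (4409.9 ± 110.3), and the glucose transporters Slc2a3 (4269 ± 111) and Slc2a1 (3059 ± 180.5) were among the brightest, and the glucose transporters of liver and muscle, Slc2a2 (15.3 ± 6) and Slc2a4 (34.8 ± 3.16), were in the background band. Slc4a8, a bicarbonate transporter, ranked first of the family by 1 probe set (5918 ± 379), while its 4 others read 87.2, 49.6, 47.2 and 26.4. Kinesins, the motors of microtubules, had 8 of 37 high (21.6%) and 13 at background (35.1%). The mitotic motors Kif22 (1939 ± 139) and Kif11 (753 ± 36.5) and the general cargo motor Kif5b (845 ± 51.8) were high, and the neuronal motors Kif5c (71.3 ± 10.2), Kif5a (44.9 ± 7.15) and Kif1a (44.3 ± 14.9) were in the background band.

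Families of developmental regulators differed in their background share. None of 33 Hox genes, which give cells their place along the body axis, was high and 25 were at background (75.8%). The brightest, Hoxa5, read 287 ± 16 by 1 probe set and 6.66 by the other, followed by Hoxb3 (138 ± 22.4). Sox and Fox genes, with 47.4% and 48.6% at background, were near the 45.9% of all genes. Sox genes had 2 of 19 high, Sox2 and Sox4, with Sox12 next at 269 ± 8.59, and Fox genes had only Foxn2 of 37 (531 ± 46.2), with Foxo3 at 393 ± 32.9 and Foxp1 at 328 ± 38.7. None of 8 Pax genes and none of 19 Wnt ligands was high, and 14 of the Wnt ligands were at background. Wnt6 (155 ± 19) and Wnt7a (147 ± 19.9) were brightest among these and did not differ beyond their spread. Of 22 Fgf ligands 15 were at background. Fgf4 was the only one in the high band, Fgf17 (302 ± 21.0) and Fgf8 (277 ± 40.4) were in the middle band and Fgf2, the growth factor used in human ES cell culture, read 16 ± 5.38.

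Several families used in differentiated tissues had a larger background share than the 45.9% of all genes. Of 42 collagens 36 were at background (85.7%), and Col18a1, a basement membrane collagen, was alone in the high band at 1285 ± 54.5, with a second probe set at 1063. Next after it came Col11a2 at 138 ± 27.2, and Col4a1, the main chain of basement membranes, read 54.9 ± 6.96. Of 72 cytochrome P450 enzymes 60 were at background (83.3%) and none was high, with Cyp20a1 (229.9 ± 12.9) and Cyp11a1 (221 ± 23.9) on top. Of 48 keratins 34 were at background and none was high. Krt42 read 304 ± 25.5, and the keratins of simple epithelia, Krt18 and Krt8, read 89.5 ± 9.11 and 52.3 ± 9.36. Of 100 ion channel genes 72 were at background and 1 was high, Kcnj11, a potassium channel subunit, at 664 ± 29.6 by 1 probe set and 33.2 by the other. Of 68 neurotransmitter receptors 48 and of 133 interleukins, chemokines and their receptors 107 were at background. Il4ra was the only one of these in the high band, at 655 ± 81.6 by a probe set of a type that can bind several transcripts (suffix _x_at), with others at 106 and 32.0. MHC class I and interferon genes had none of 17 high, 10 middle and 7 at background (41.2%): B2m, the light chain of MHC class I, read 169 ± 6.41, the heavy chains H2-D1 and H2-K1 read 120.0 ± 7.33 and 115 ± 8.03, and the interferon-induced Ifit1 read 13.4 ± 7.39.

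Germ cell and imprinted genes were mixed. Of 16 germ cell genes 3 were high (18.8%, against 14.7% of all genes) and 6 background (37.5%, against 45.9%). The high ones were the interferon-induced membrane proteins Ifitm1 (3612 ± 86.2) and Ifitm3 (1392 ± 42.0), which mark early germ cells, and Sycp3, a protein of meiotic chromosomes (673 ± 41.0). Its partner in that structure, Sycp1, read 26.1 ± 6.64. Ddx4, the germ cell helicase also called Vasa, was in the middle band at 150.4 ± 14, and Dazl (50.8 ± 4.56) and Stra8 (33.1 ± 8.78), which act before meiosis, were in the background band. Of 19 imprinted genes, expressed from 1 parental copy, 7 were high (36.8%), 6 middle and 6 background (31.6%). Meg3 (1284 ± 45.3) and Rian (771 ± 37.9), RNAs made from the maternal copy of the same locus, were high, and Dlk1, the protein-coding gene of that locus expressed from the paternal copy, read 39.7 ± 5.20. Igf2r, expressed from the maternal copy, read 267 ± 13.6 and its ligand Igf2 66.6 ± 10.2. Grb10 (958 ± 31.1), Phlda2 (796 ± 46.3) and Mest (689 ± 32.0), which act on fetal or placental growth, were high, and Peg10, a retrotransposon-derived placental gene, read 23.7 ± 2.63.

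Long noncoding RNA genes were seldom bright. Of 1458 such genes 24 were high (1.65%) and 83.0% were at background, against 16% and 42.2% of 16473 protein-coding genes. Gas5 (2351 ± 114), Snhg1 (2264 ± 104) and Zfas1 (1511 ± 75.2), all hosts of small nucleolar RNAs that guide the modification of rRNA, were among the brightest. Malat1, a nuclear speckle RNA, read 1339 ± 286, Norad, which binds Pumilio proteins, 949.7 ± 35.6, Tug1 593 ± 25.2 and Neat1, the scaffold of paraspeckles, 314 ± 15.2. On the X chromosome 14.4% of genes were high and 52.3% at background, against 14.7% and 45.6% on autosomes.

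What the promoters of these genes share was read from RefSeq sequence, which the ranking did not use. Of the 18193 genes, 14452 matched a RefSeq promoter by symbol or gene ID, and the 11791 with 1 listed start are described, by the 250 bases before that start on the GRCm38.p6 build. Promoters of high genes held 18.9 CpG dinucleotides on average, those of middle genes 16.4 and those of background genes 10.1, with 60.6, 60.1 and 54.8% of bases G or C. The motif CGGAAG is the core of the sites bound by ETS-family factors. It was present on either strand in 34.9% of high, 24.4% of middle and 11.9% of background promoters, and in 20.3% of these measured genes together. In all 22862 promoters of genes with 1 listed start, measured here or not, its share was 13.7%. The TATA box letters TATAAA were present in 6.14, 6.84 and 12.3%, against 9.25% of measured genes and 13.6% of all promoters. The GC box GGGCGG was present in 65.1, 59.2 and 37.8%, against 50.3 and 32.4%. The E-box CACGTG was present in 10.6, 8.35 and 5.92%, against 7.58 and 5.92%, and CCAAT in 39.3, 36.6 and 34.7%, against 36.1 and 34.7%. Both strands were searched for each motif, and GGGCGG and CGGAAG can overlap.

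CGGAAG holds a CpG, so its share was also counted within classes of CpG number, a split chosen after seeing the data. It stayed highest in high promoters in each class: 13.8, 11.5 and 6.07% of high, middle and background promoters with 0 to 9 CpGs, 36.6, 27.8 and 18.9% with 10 to 19, 42.1, 32.7 and 24.8% with 20 to 29, and 34.7, 25.4 and 20.1% with 30 to 60. TATAAA did not keep 1 order. It was present in 11.9, 14.2 and 17.6% of high, middle and background promoters with 0 to 9 CpGs, 7.3, 5.15 and 5.69% with 10 to 19, 2.9, 3.44 and 2.88% with 20 to 29, and 3.56, 2.1 and 1.37% with 30 to 60, so that its share was lowest in high promoters in the first class and highest in them in the second and last. A match is a run of letters and was not tested as a binding site.

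**Figure D3:**
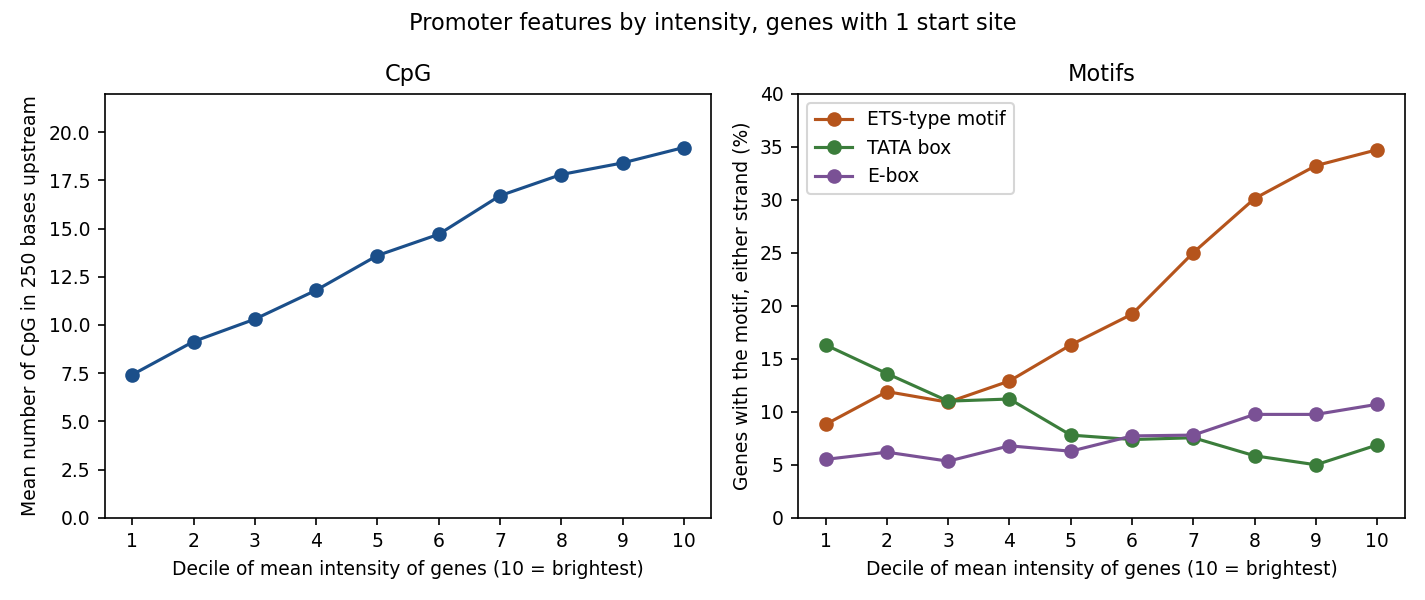
Promoters of 11791 genes in deciles of mean intensity, from the dimmest (1) to the brightest (10): the mean number of CpG dinucleotides in the 250 bases before the start, and the percent of promoters with the ETS-type motif, the TATA box and the E-box letters. CpG number rises from 7.42 to 19.2 and the ETS-type motif from 8.81 to 34.7%, while the TATA box falls from 16.3 to 6.87%.

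Lists differed in these letters. CGGAAG was present in 23 of 34 promoters of cytosolic ribosomal proteins and 28 of 64 of mitochondrial ribosomal proteins. It was present in 1 of 31 keratin and 2 of 46 cytochrome P450 promoters, and in 20.3% of all genes measured. Bright lists did not all have a large share. That of hnRNP and SR proteins was 23.8% and that of BAF subunits 20%, and none of 14 Polycomb promoters had a match. TATAAA was present in 16 of 31 keratin and 19 of 46 cytochrome P450 promoters. It was present in 2 of 34 cytosolic ribosomal ones and in 9.25% of all genes measured. The 100 bases before the start of 4 of the brightest ribosomal protein genes with a match show how near to the start these letters can lie, with CGGAAG or its reverse complement in capitals, each on the strand of its gene, 5′ to 3′, from RefSeq (GRCm38.p6).
Rpl4, chr9:64173287-64173386, plus strand: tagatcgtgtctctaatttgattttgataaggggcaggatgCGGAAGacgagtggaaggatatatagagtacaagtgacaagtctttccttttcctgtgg
Rps3a1, chr3:86142669-86142768, minus strand: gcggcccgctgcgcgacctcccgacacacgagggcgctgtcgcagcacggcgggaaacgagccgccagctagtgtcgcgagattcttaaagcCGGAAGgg
Rps28, chr17:33824563-33824662, minus strand: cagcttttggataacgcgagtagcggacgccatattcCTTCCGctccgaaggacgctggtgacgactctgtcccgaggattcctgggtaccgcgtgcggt
Rps18, chr17:33955666-33955765, minus strand: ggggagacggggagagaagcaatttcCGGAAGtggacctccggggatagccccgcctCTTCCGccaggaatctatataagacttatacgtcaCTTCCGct
In Rpl4 the match starts 59 bases before the start of the gene, in Rps3a1 8 and in Rps28 63, and Rps18 has 3 matches, at 74, 43 and 8 bases. These genes read 9546 ± 316, 8512 ± 265, 8126 ± 312 and 8022 ± 235.

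Shown beside them are promoters of the dimmest keratin genes with TATAAA in these 100 bases, with the match in capitals. Both sets were picked for holding their motif, so the difference between the printed sequences follows from that choice. Only the exact letters TATAAA were searched. Near variants, such as tatataag in Rps18 above, were not counted.
Krt25, chr11:99322952-99323051, minus strand: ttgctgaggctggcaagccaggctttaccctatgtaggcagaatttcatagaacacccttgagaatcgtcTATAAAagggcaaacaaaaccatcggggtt
Krt20, chr11:99438154-99438253, minus strand: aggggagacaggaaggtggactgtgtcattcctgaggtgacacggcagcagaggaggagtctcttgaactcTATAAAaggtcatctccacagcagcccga
The match starts 30 and 29 bases before the start. Krt25, a hair follicle keratin, was at or near the floor with a highest array of 4.20, and Krt20, an intestinal keratin, read 20.4 ± 8.12.

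At the Sox-Oct composite motif Sox2 and Oct4 bind side by side. Only 1 exact form of it was searched, that in capitals below with 1 letter left free. Variants, other spacings and sites outside the 250 bases before a start were not searched, so a gene without a match may still have a site. The form searched was found in 6 genes of the promoter table, of which 4 were measured. Nanog, whose promoter site is well known, was high, Pipox (385 ± 15.4) and Exoc1 (193 ± 9.49) were middle and Nrarp (52.6 ± 11) was background. Of all genes 14.7% were high, 39.4% middle and 45.9% background, and 4 genes are too few to set against these shares. In Nanog the site, in capitals, starts 75 bases before 1 of its 2 listed starts and reads on the opposite strand.
Nanog, chr6:122707389-122707488, plus strand: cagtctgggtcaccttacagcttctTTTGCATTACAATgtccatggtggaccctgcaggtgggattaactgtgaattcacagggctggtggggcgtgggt

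The spread between the 8 arrays fell as intensity rose. The median SD of log2(intensity + 16) was 0.0621 in the high band, 0.111 in the middle band and 0.252 in the background band, and the median coefficient of variation 4.39, 8.58 and 27.6%. In the dimmest 10% of probe sets the coefficient of variation was 74.6%. A probe set kept 1 band on all 8 arrays in 86.8% of cases, 91.3% in the high, 79.4% in the middle and 89.7% in the background band. Of the 100 brightest probe sets of each array, 87 were shared by all 8, and 116 were in the first 100 of any. Without arrays 1 and 2, the median SD was 0.0537, 0.102 and 0.228 in the 3 bands.

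**Figure D4:**
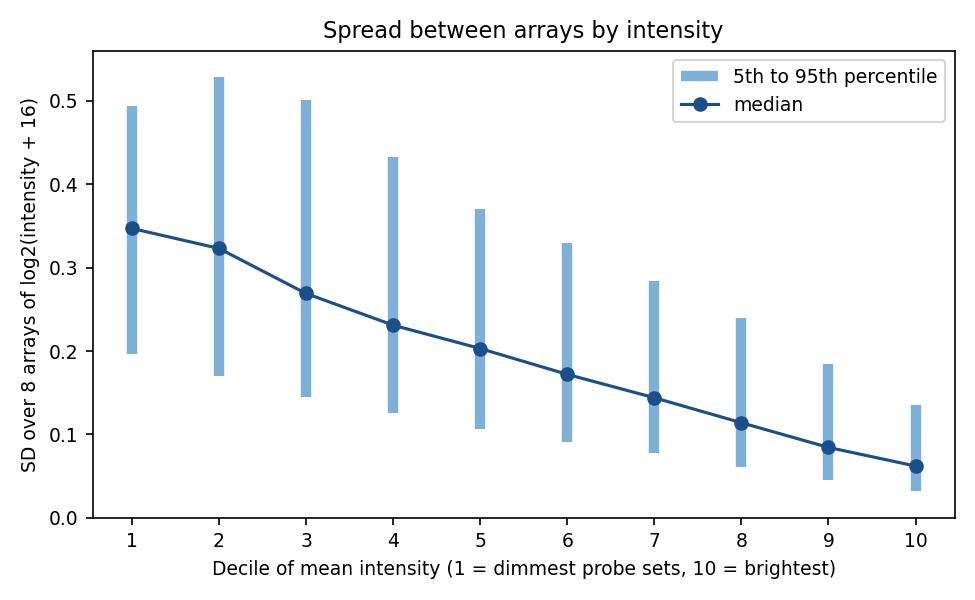
Spread between the 8 arrays, as the SD of log2(intensity + 16), in deciles of mean intensity over 45037 probe sets from the dimmest (1) to the brightest (10). The points are medians and the bars run from the 5th to the 95th percentile of probe sets, and the median falls from 0.347 to 0.0621.

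The steadiest genes of the high band had narrow ranges. Mrps16, a mitochondrial ribosomal protein, read 540.1 at the lowest, 545 at the median and 555 at the highest, Ndufv3 of complex I 1365, 1381 and 1410.3, and Wnk1, a kinase of ion balance, 1314, 1335 and 1351. Srp9, a signal recognition particle protein (1022 ± 14), and Phf23, a PHD finger protein (684 ± 9.76), followed.

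The most variable genes of that band fell into sets by array. Array 1 was highest for F8a (846 at the lowest, 1127 at the median, 2002 at the highest) and for Tcf7l2, a Wnt pathway transcription factor (1426, 1655 and 2745). The other probe set of F8a read 25.8 and those of Tcf7l2 read 84.8, 57.0 and 21.3. Arrays 1 and 2 were both below the others for 2900052N01Rik, Zmynd10, a cilium assembly protein, and Agbl4, a tubulin-modifying enzyme. Their means on arrays 1 and 2 were 268, 533 and 319 and on arrays 3 to 8 were 702, 992 and 546. The other probe sets of 2900052N01Rik and of Agbl4 overlapped between these arrays. Hnrnpab had 1 such probe set of 7, at 1540.5 against 2532, and its brightest read 4198 and 4192.

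Malat1 differed between its own probe sets. Of 7, 4 were above arrays 3 to 8 on arrays 1 and 2, by 0.59 to 0.99 on the log2 scale, 2 were below, by -0.79 and -0.41, and 1 overlapped. Its brightest averaged 1791 on arrays 1 and 2 and 1188 on the others. Both probe sets of Neat1 overlapped.

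**Figure D5:**
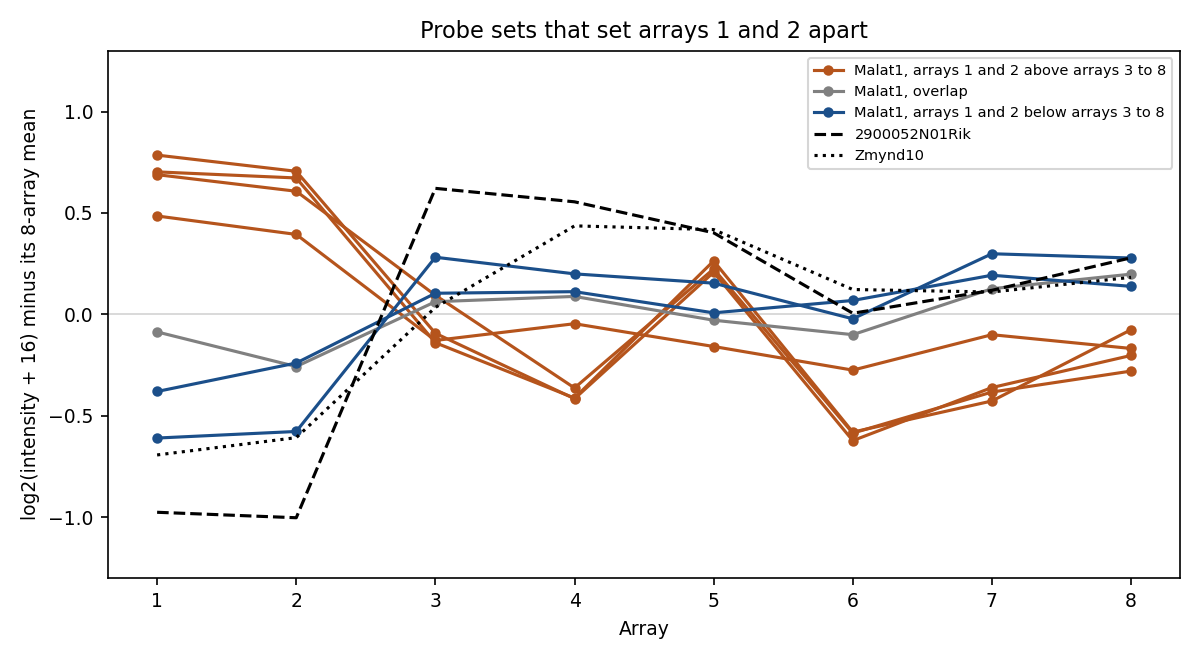
Deviation of each array from the mean over arrays, on the scale of log2(intensity + 16), for 7 probe sets of Malat1 and 1 each of 2900052N01Rik and Zmynd10. Arrays 1 and 2 lie above the others for 4 Malat1 probe sets (0.59 to 0.99) and below them for 2 Malat1 probe sets and for 2900052N01Rik and Zmynd10 (-1.32 and -0.87).

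The most variable genes of the middle band had wide ranges. Pigr, the epithelial transporter of antibodies, read 13.7 at the lowest, 153 at the median and 168 at the highest, Tmem171 34.0, 119.6 and 263, Fank1 21.8, 107 and 137, Apoa1, the main protein of HDL, 40.4, 74.8 and 176, and Sgk2, a serum-regulated kinase, 42.0, 93.4 and 216. Each crossed the background level.

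Probe sets of 1 gene often disagreed. Of 9010 genes with at least 2 probe sets, the median log2 gap between brightest and dimmest was 1.24, 190 genes had a gap of 5 or more, and 864 (9.59%) had probe sets in both the high and the background band. The widest gaps were those of Tpt1 (8742 and 12), Tmsb10 (7999.9 and 13.1), Tubb4b, a beta-tubulin (5638 and 7.14), Mtm1 (8305 and 20.5) and Hmgn1 (6097 and 14.2). A band given to a gene is therefore the band of its brightest probe set. By the mean over all probe sets of a gene, 8 of 14 naive pluripotency factors were high in place of 10 and none was at background, and no primitive endoderm, trophoblast or skin marker, Fox gene, Fgf ligand, ion channel gene or interleukin gene was high. High counts fell to 4 of 37 kinesins, 15 of 333 Zfp genes, 4 of 19 imprinted genes, 1 of 13 primed-state genes and 1 of 19 Sox genes. Brighter lists fell too, to 35 of 76 mitochondrial ribosomal proteins, 24 of 40 core spliceosome proteins, 12 of 18 nuclear pore proteins and 16 of 51 RNA helicases. The TRiC subunits (8 of 8) and the hnRNP and SR proteins (27 of 29) kept their counts. At background were then 21 kinesins, 5 translation factors and 2 genes of the LIF, Fgf and BMP pathways. These counts are to be read beside those of all genes, of which 8566 of 18193 lay above background by this mean, in place of 9841. The high share of all genes by this mean is not given here.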

How the data were processed

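The deposited values are linear intensities, 1 for each probe set and array, and per the labels every array carried the same E14tg2a RNA. How probes were summarised and arrays scaled is not given in the sources used here. Probe sets were named from the platform annotation, with symbols updated through RefSeq (GRCm38.p6): 34945 had 1 symbol, of which 34741 matched a RefSeq gene, 932 had several and 9160 none. Means, SDs and ranges over 8 arrays were computed with Python 3.11.15, numpy 2.4.6 and pandas 2.3.3, with no further scaling, and figures drawn with matplotlib 3.10.9. The steps were tested on simulated data. With 1 group there is no contrast and no test between groups. Single arrays far from the rest were sought with Dixon's criterion (gap over range above 0.526).

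The members and lists were chosen with earlier results of these data known. The rule for naming genes took the 20 brightest, the 3 brightest and the dimmest of each list, all members of the core, naive and ES cell-enriched lists, the 5 steadiest and 5 most variable high genes, the 5 most variable middle genes and the 5 widest probe-set gaps. Other genes named, such as dim paralogues, were chosen after their values were seen. Alternatives were other background and high levels, array scalings, summaries, pseudocounts, probe-set selections and left-out arrays.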

Additional observations from a re-analysis of the deposited data

Results flagged for a closer look

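Of 322 sets of 8 values examined, 17 (5.28%) had 1 array far from the other 7, where chance alone gives about 1 in 20. They are given as values only.

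On array 1, Rps2 was highest at 9564.7 (others 8675.3 to 9085.8), Tcf7l2 at 2745.0 (others 1425.7 to 2022.7), Igf2r at 297.79 (others 252.77 to 271.26) and Tyms at 66.973 (others 42.616 to 53.764), and Psmb9 was lowest at 58.964 (others 66.14 to 71.597). On array 2, Uqcrb was highest at 4911.0 (others 4464.2 to 4663.5), and Kif22 was lowest at 1633.3 (others 1884.4 to 2092.0), Ezh2 at 1023.5 (others 1104.1 to 1152.5) and Norad at 870.16 (others 930.36 to 977.43). On array 3, L1td1 was highest at 3308.4 (others 2926.6 to 3057.2) and Krt20 at 38.341 (others 13.181 to 24.197), and Pigr was lowest at 13.698 (others 113.37 to 168.48). Sox17 was highest on array 4 at 54.187 (others 30.068 to 38.024), still below the background level. Eif4a1 was lowest on array 6 at 6726.8 (others 7017.8 to 7245.2), where Krt25 was highest at 4.2044, with the floor of 1 on all others. Suz12 was lowest on array 7 at 800.47 (others 843.7 to 876.96). The 3' to 5' ratio of the actin controls was highest on array 5 at 1.2425 (others 1.1906 to 1.2106).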

How the results depend on the processing

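Where a band begins set its size. With the 99th percentile of receptor probe sets as background the middle band held 8144 probe sets, and with the organ-specific genes 6138, leaving 6246 genes above background. With the top 5% as high, 2252 probe sets were high and 363 genes had probe sets in both outer bands. With the top 20%, 9008 were high, 8805 middle and 1933 genes in both. The median SD of the high band was 0.0728 with the top 20%, 0.0753 after scaling to array medians and 0.0537 without arrays 1 and 2, a setting chosen after seeing the data. That of the middle band was 0.12 with the 90th percentile, 0.0950 with the 99th, 0.0895 with organ-specific genes, 0.127 with the top 20%, 0.119 after scaling to array medians, 0.123 and 0.0844 with pseudocounts of 1 and 64, and 0.102 without arrays 1 and 2. That of the background band was 0.231 with the 99th percentile, 0.223 with organ-specific genes, 0.404 and 0.115 with those pseudocounts and 0.228 without arrays 1 and 2. Leaving out 1 array at a time gave 9691 to 10030 genes above background and a median SD of 0.0587 to 0.0635, 0.107 to 0.112 and 0.239 to 0.255 in the high, middle and background band. Of 110 counts of list members, 18 moved by more than 1.5 times when a gene's probe sets were averaged, 15 with the 99th percentile, 2 without arrays 1 and 2 and none after quantile normalization. Of 209 named genes with several probe sets, 190 had means that moved by more than their SD when these were averaged. The 2 list counts that moved without arrays 1 and 2 were those with Axin2 and Prom1, which then lay below a background level of 76.8. No paired analysis was possible because the arrays form 1 group. Signal over background limits what can be said of dim genes, and technical replicates of 1 RNA say nothing about the spread between cultures.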
